A study of Homo sapiens with 3 samples.

Results

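The genes of the cholesterol pathway after squalene epoxide were followed in HepG2 cells, a human liver carcinoma line of wild-type genotype. The 9 genes were LSS, CYP51A1, TM7SF2, MSMO1, NSDHL, HSD17B7, EBP, SC5D and DHCR7, matched by symbol among the 62680 rows of the deposited expression table. They were chosen by their place in the pathway, with earlier results of these libraries known, in which cholesterol synthesis genes as a group stood below PBS with A438079. All ratios between these libraries therefore count as used in the choice, and the values are given as a description, with no test. All 9 averaged at least 1 CPM (counts scaled to library size) over the libraries and so passed the filter, as did 12273 genes in all. Cells were given 20 µM A740003, 20 µM A438079 or PBS, the control, for 48 h. The labels describe A740003 and A438079 as specific antagonists of P2X7, an ATP-gated ion channel. With 1 mRNA-seq library for each treatment there is no replicate to check a difference against, and a treatment and its library cannot be told apart. The sources used here do not give the solvent of the antagonists, so what it adds to both antagonist libraries cannot be told apart either.

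Cells make cholesterol from acetyl-CoA through mevalonate and squalene, and the liver is a main site of this synthesis. After squalene is made into its epoxide, LSS folds it into lanosterol, the first sterol, and the other enzymes strip methyl groups, move a double bond and reduce the ring until cholesterol is formed. The transcription factor SREBP2 is known to raise the genes of the whole pathway when sterols in the endoplasmic reticulum are low, together with NF-Y, which binds CCAAT boxes, and Sp1, which binds GC boxes.

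The RefSeq promoter windows of all 9 genes (GRCh38.p14, from 250 bases before to 50 bases after the start) were searched on both strands for CCAAT, for GGGCGG and for TCACNCCAC, a sterol regulatory element. A CCAAT match was present in 8 of 9 windows, CYP51A1 being the exception, against 34.6% of the 35116 promoter windows in the table. GGGCGG was present in 8 of 9, NSDHL being the exception, against 45.0% of windows. TCACNCCAC was present in none of the 9, against 1.13% of windows. These are matches of letters, and no match says only that those letters were not in the window. DHCR7 and SC5D had a second listed start, and the counts of the 9 take the first, while the shares over all windows take every listed start. Those shares were not matched to the 9 genes for GC content or expression. The first windows of the 9 ran from 58.3% GC for EBP to 75% for DHCR7. The part of base content in the match counts was not tested. The second window of SC5D held 1 CCAAT and 1 GGGCGG match, and that of DHCR7 held 0 of each. The windows below are those of the genes whose levels set the pattern apart: LSS, lowest with both antagonists, DHCR7, with the largest difference between antagonists, MSMO1, the most abundant, NSDHL, the highest relative to PBS with A740003 by scaled counts, TM7SF2, with the smallest difference between antagonists, and CYP51A1, without a CCAAT match. Each is printed from the upstream end in the direction of transcription, and capitals mark CCAAT on either strand (CCAAT or ATTGG). In NSDHL a pair of matches on opposite strands overlap, so that they read as one run of capitals.
LSS, chr21:46228725-46229024, minus strand: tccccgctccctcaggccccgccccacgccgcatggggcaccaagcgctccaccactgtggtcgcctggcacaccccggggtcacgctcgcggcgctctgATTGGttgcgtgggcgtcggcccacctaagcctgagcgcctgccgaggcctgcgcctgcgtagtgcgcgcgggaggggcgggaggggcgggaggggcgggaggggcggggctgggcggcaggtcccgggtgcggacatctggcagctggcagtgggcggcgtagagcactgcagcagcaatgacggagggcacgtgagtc
DHCR7, chr11:71448344-71448643, minus strand: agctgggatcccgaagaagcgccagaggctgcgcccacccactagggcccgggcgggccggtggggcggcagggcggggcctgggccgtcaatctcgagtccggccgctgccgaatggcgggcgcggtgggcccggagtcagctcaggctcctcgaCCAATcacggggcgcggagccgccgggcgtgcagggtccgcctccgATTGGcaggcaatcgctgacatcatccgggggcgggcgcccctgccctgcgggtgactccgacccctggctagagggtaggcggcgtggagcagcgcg
MSMO1, chr4:165327419-165327718, plus strand: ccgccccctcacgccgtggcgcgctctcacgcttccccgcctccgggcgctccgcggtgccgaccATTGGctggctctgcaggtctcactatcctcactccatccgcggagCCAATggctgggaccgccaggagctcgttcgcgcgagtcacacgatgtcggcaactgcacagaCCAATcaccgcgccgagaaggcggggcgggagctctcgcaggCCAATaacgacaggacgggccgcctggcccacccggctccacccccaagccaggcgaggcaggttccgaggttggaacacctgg
NSDHL, chrX:152830813-152831112, plus strand: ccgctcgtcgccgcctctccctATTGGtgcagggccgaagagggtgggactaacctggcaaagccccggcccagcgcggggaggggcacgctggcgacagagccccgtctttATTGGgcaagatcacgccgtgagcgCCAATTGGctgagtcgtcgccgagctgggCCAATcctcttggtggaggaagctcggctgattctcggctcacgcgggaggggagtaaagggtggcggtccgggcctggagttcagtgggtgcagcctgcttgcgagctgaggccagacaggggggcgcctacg
TM7SF2, chr11:65111622-65111921, plus strand: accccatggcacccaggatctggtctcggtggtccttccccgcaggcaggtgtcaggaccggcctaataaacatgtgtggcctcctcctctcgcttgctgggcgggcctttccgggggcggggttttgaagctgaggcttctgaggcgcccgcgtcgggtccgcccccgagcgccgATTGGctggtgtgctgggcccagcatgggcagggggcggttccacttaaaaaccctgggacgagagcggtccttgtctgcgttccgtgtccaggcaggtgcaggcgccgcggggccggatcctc
CYP51A1, chr7:92134428-92134727, minus strand: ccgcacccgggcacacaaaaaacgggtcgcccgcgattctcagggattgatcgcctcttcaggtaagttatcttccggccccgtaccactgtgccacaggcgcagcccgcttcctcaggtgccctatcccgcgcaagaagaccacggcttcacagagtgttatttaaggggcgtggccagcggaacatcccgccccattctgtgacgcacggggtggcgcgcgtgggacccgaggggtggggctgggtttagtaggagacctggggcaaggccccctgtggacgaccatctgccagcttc

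NSDHL held 5 CCAAT matches, MSMO1 held 4, EBP 3, HSD17B7 and DHCR7 2 each, and LSS, TM7SF2 and SC5D 1 each. The LSS window held 7 GGGCGG matches, TM7SF2 and DHCR7 held 4 each, and MSMO1 held 2. The other members held 1 GGGCGG match each, apart from NSDHL.

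Library totals ran from 19375501 to 19735585 expected counts. The hepatocyte genes fixed for a check of the cell type (ALB, APOA1, APOB, TTR, TF, SERPINA1, HNF4A and FGB) were measured in all libraries and summed to 21246 CPM with A740003, 22653 CPM with A438079 and 20613 CPM with PBS. Single genes of this list moved in both directions. Ratios to PBS ran from 0.741 for FGB to 1.66 for TTR with A740003, and from 0.959 for ALB to 1.32 for APOB with A438079. TTR was low, at 149 counts with A740003, 115 with A438079 and 88 with PBS. The markers of fibroblasts and stellate cells summed to at most 0.515 CPM and those of endothelial cells to at most 0.155 CPM in any library. Among blood cell markers PTPRC and CD3E were at 0 counts in every library, and LYZ held nearly all of the list's 947 to 1038 CPM. Of the 5 bile duct markers, KRT7 and CFTR were at 0 counts in every library, and the list summed to 341 CPM with A740003, 394 CPM with A438079 and 429 CPM with PBS. The 3 measured markers held these sums. All 3 stood below PBS with both antagonists, beside 49.1% of all genes with A740003 and 50.5% with A438079. Their median log2 ratio was -0.33 for A740003 and -0.14 for A438079, and none was 1.5-fold lower. The part of these shifts in the results below was not tested.

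Levels can be compared between genes only per length, by the authors' FPKM (fragments scaled to transcript length and library size). The 9 genes spanned 9.57 to 142 FPKM with A740003, 5.64 to 97.0 FPKM with A438079 and 16.1 to 141 FPKM with PBS. MSMO1 was the most abundant in every library. By the mean over libraries EBP, CYP51A1, SC5D, DHCR7, NSDHL, HSD17B7, TM7SF2 and LSS followed in that order. In the PBS library LSS, at 16.4 FPKM, and TM7SF2, at 16.1 FPKM, had overlapping 95% counting intervals, as did EBP with CYP51A1 and SC5D with DHCR7. The counting interval of LSS lay below that of TM7SF2 in both antagonist libraries, at 8.79 to 10.4 against 10.9 to 13.7 FPKM with A740003 and at 5.07 to 6.25 against 10.6 to 13.5 FPKM with A438079. With A438079 DHCR7, at 29.2 FPKM, stood below NSDHL, at 36.2 FPKM. DHCR7 stood above NSDHL in both other libraries, at 64.4 against 50.8 FPKM with A740003 and at 62.4 against 49.9 FPKM with PBS.

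**Figure D1:**
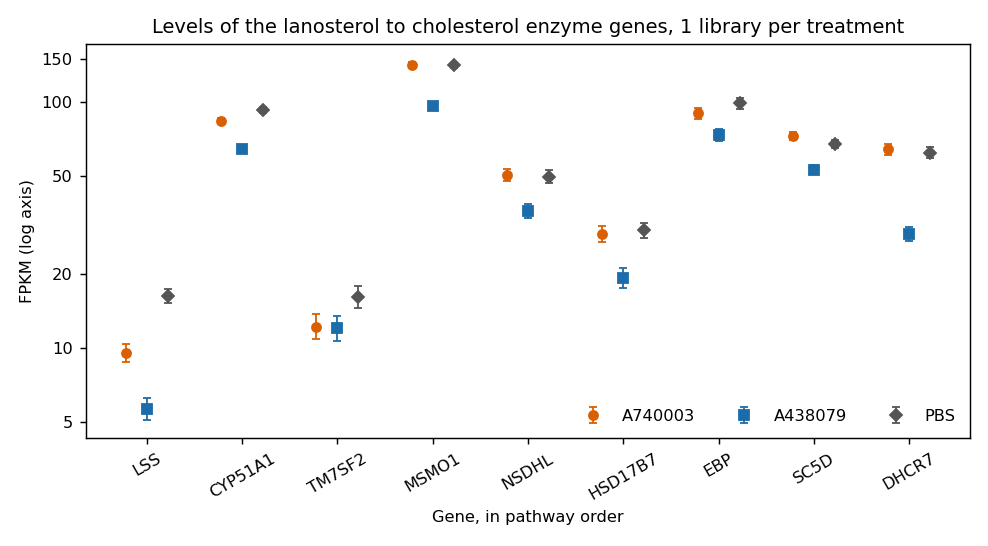
FPKM (log axis) of each gene in pathway order, with 1 library each for A740003 (circles), A438079 (squares) and PBS (diamonds) and bars for the exact Poisson 95% interval, which covers counting error only. The A438079 square is the lowest of the 3 for every gene; for TM7SF2 it stands at 12.0 FPKM beside 12.2 FPKM with A740003.

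In the A438079 library all 9 genes stood below PBS and all 9 counting intervals of the ratio lay below 1. Over all genes compared, 50.5% stood below PBS, 23.2% had such an interval and 22.9% had an interval above 1. Ratios of scaled counts ran from 0.400 for LSS to 0.808 for SC5D, and the median log2 ratio of the 9 genes was -0.48, beside -0.004 for all genes. Of the 9, LSS and DHCR7 were at least 1.5-fold lower with an interval that excludes 1, and none was higher. By the same rule 9.43% of all genes (1157) were lower and 1.63% (200) were higher. Among the 7046 genes at least as abundant as the least abundant of the 9 (a mean of 16.1 CPM), 2.28% were lower by that rule, 19.9% had an interval below 1 and 34.4% above. Summed, the 9 genes took 13320 counts with A438079 against 18758 with PBS, a ratio of 0.711 (95% counting interval 0.696 to 0.727).

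With A740003 the same genes stood on both sides of PBS. Ratios ran from 0.594 for LSS to 1.12 for NSDHL, and the median log2 ratio was -0.03, beside 0.005 for all genes. The counting interval lay below 1 for LSS, CYP51A1, TM7SF2 and EBP, above 1 for NSDHL and SC5D, and held 1 for MSMO1, HSD17B7 and DHCR7. Over all genes 26.2% had an interval below 1 and 26.6% above. LSS alone was at least 1.5-fold lower, and none of the 9 was higher. Of all genes 10.6% (1297) were lower and 3.21% (394) were higher by that rule. Among the 7046 genes at least as abundant as the least abundant of the 9, 3.32% were lower by that rule, 25.1% had an interval below 1 and 36.9% above. The sums were 18690 counts (A740003) and 18758 counts (PBS), whose ratio was 0.975 (0.955 to 0.995). Both comparisons use the same PBS library, and an error in it would shift both.

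**Figure D2:**
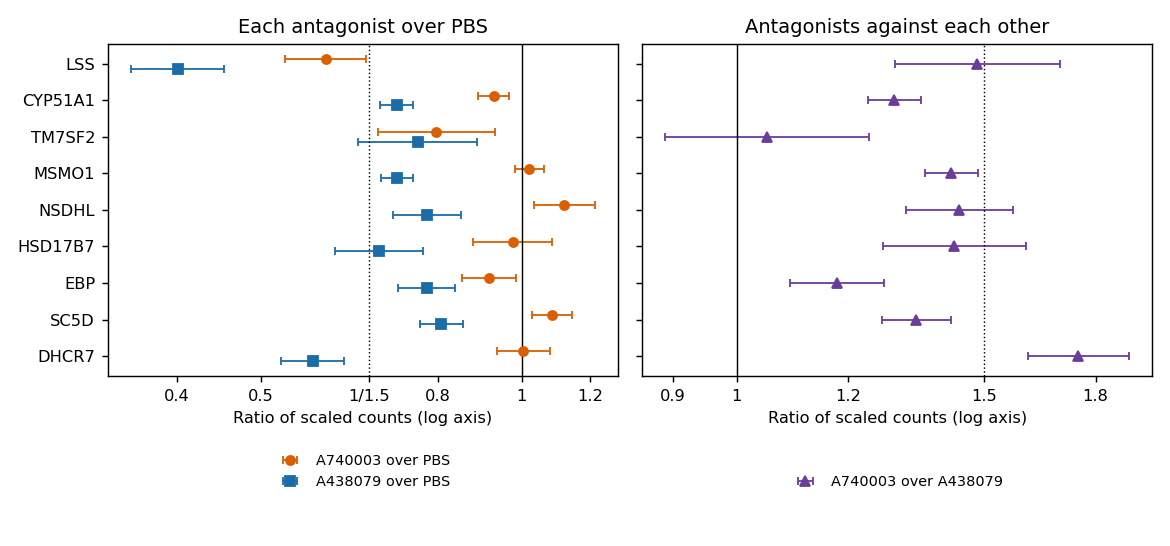
Ratio of scaled counts (log axis) of each gene for A740003 and A438079 over PBS (left) and for A740003 over A438079 (right), with bars for the 95% counting interval, a solid line at 1 and a dotted line at 1.5-fold. Every A438079 square lies left of 1, between 0.400 and 0.808, and TM7SF2 is the one gene whose interval on the right holds 1.

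LSS, the lanosterol synthase gene (ENSG00000160285; chromosome 21, 46188141 to 46228824, minus strand, GENCODE release 29 on GRCh38), had 551 counts with A740003, 363 with A438079 and 908 with PBS. It was the lowest of the 9 relative to PBS in both antagonist libraries. The ratio to PBS was 0.594 (0.533 to 0.661, the 95% counting interval) for A740003 and 0.400 (0.354 to 0.453) for A438079. Of all genes, 8.29% had a lower log2 ratio with A740003 and 1.69% with A438079. Its longest transcript has a GC content of 58.3% and 4936 nt. With the trend of the ratios with transcript GC content and length removed its ratio was 0.808 (0.726 to 0.900) with A740003, no longer 1.5-fold, and 0.512 (0.452 to 0.579) with A438079.

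CYP51A1, a cytochrome P450 that takes the first methyl group off lanosterol (ENSG00000001630; chromosome 7, 92112151 to 92134803, minus strand), had 4641 counts with A740003, 3501 with A438079 and 4892 with PBS. The A438079 library was the low one, at 0.717 times PBS (0.686 to 0.749), while A740003 stood at 0.928 times (0.891 to 0.966). Its pseudogenes and its antisense neighbour CYP51A1-AS1 held at most 3 expected counts each in any library, and the overlapping coding gene AC000120.2 held 23.5 to 24.9.

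TM7SF2 encodes the sterol reductase that acts on the CYP51A1 product (ENSG00000149809; chromosome 11, 65111845 to 65116384, plus strand). It was the gene with the fewest counts, 299 with A740003, 278 with A438079 and 367 with PBS. Both antagonist libraries were low and close to each other, at ratios to PBS of 0.797 (0.682 to 0.931) for A740003 and 0.759 (0.647 to 0.889) for A438079. With the GC and length trend removed, both intervals held 1, at ratios of 0.956 (0.818 to 1.12) and 0.922 (0.786 to 1.08). Its transcripts had the highest GC content of the 9, 64.2%. VPS51 overlaps it on the same strand and had 230 expected counts with A740003, 242 with A438079 and 307 with PBS, so TM7SF2 is uncertain where reads could belong to either gene.

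MSMO1, NSDHL and HSD17B7 remove the remaining pair of methyl groups in turn: MSMO1 oxidises the methyl group, NSDHL removes the carbon and HSD17B7 reduces the ketone that is left. MSMO1 (ENSG00000052802; chromosome 4, 165327623 to 165343160, plus strand) had 5225 counts with A740003, 3590 with A438079 and 5006 with PBS. A438079 was the low library, at 0.718 times PBS (0.688 to 0.750), and A740003 stood at 1.02 times (0.982 to 1.06). NSDHL (ENSG00000147383; chromosome X, 152830967 to 152869729, plus strand) had 1263 counts with A740003, 857 with A438079 and 1103 with PBS. It lay on opposite sides of PBS, at 1.12 times PBS (1.03 to 1.22) for A740003 and 0.778 times PBS (0.711 to 0.852) for A438079. HSD17B7 (ENSG00000132196; chromosome 1, 162790702 to 162812817, plus strand) had 709 counts with A740003, 485 with A438079 and 710 with PBS. Its A740003 and PBS counts were nearly equal, at a ratio of 0.977 (0.879 to 1.09), and A438079 stood at 0.684 times PBS (0.608 to 0.769). HSD17B7 is uncertain because a pseudogene row, HSD17B7P2, held 81.2 expected counts with A740003, 70.8 with A438079 and 121 with PBS. Summed with its pseudogenes, HSD17B7 stood at 0.936 times PBS (0.848 to 1.03) for A740003 and 0.670 times PBS (0.601 to 0.747) for A438079.

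EBP, the isomerase that moves the double bond of the sterol ring (ENSG00000147155; chromosome X, 48521158 to 48528716, plus strand), had 1464 counts with A740003, 1213 with A438079 and 1563 with PBS. It was below PBS in both, at 0.916 times PBS (0.853 to 0.985) for A740003 and 0.777 times PBS (0.721 to 0.838) for A438079. SC5D, the desaturase that adds a ring double bond (ENSG00000109929; chromosome 11, 121292453 to 121308694, plus strand), had 2952 counts with A740003, 2148 with A438079 and 2664 with PBS. Like NSDHL it lay on opposite sides of PBS, at 1.08 times PBS (1.03 to 1.14) for A740003 and 0.808 times PBS (0.763 to 0.855) for A438079. DHCR7 reduces the last ring double bond, and its loss causes Smith-Lemli-Opitz syndrome (ENSG00000172893; chromosome 11, 71428193 to 71452868, minus strand). It had 1586 counts with A740003, 885 with A438079 and 1545 with PBS. The A740003 and PBS libraries differed by less than counting error, at a ratio of 1.004 (0.936 to 1.08), and A438079 stood at 0.574 times PBS (0.528 to 0.624). The antisense gene AP002387.1 overlaps DHCR7 and held 31 expected counts with A740003, 17 with A438079 and 18 with PBS.

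At equal dose and time, the antagonist libraries differed in the same direction for all 9 genes, and this ratio does not use the PBS library. All 9 stood higher with A740003 than with A438079, while 49.8% of all genes stood lower. The median log2 ratio was 0.51, beside 0.001 for all genes. The counting interval lay above 1 for 8 of the 9, where 16.1% of all genes had an interval above 1 and 16.8% below. DHCR7, at 1.75 times (1.61 to 1.90), was the 1 gene at least 1.5-fold higher, a size that 2.52% of all genes reached with an interval above 1 and 2.74% reached as lower genes. Among the same 7046 genes, 0.255% were higher by that rule and 0.284% lower, while 19.5% had an interval above 1 and 21.3% below. LSS stood at 1.48 times (1.30 to 1.70), NSDHL at 1.44 times (1.32 to 1.57), HSD17B7 at 1.43 times (1.27 to 1.61), MSMO1 at 1.42 times (1.36 to 1.48), SC5D at 1.34 times (1.27 to 1.42) and CYP51A1 at 1.29 times (1.24 to 1.35). The smallest ratios were those of EBP, at 1.18 times (1.09 to 1.27), and TM7SF2, at 1.05 times (0.889 to 1.24). TM7SF2 differed by less than counting error, and its interval still allows a ratio of up to 1.24. The sum of the 9 genes stood at 1.37 times (1.34 to 1.40).

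**Figure D3:**
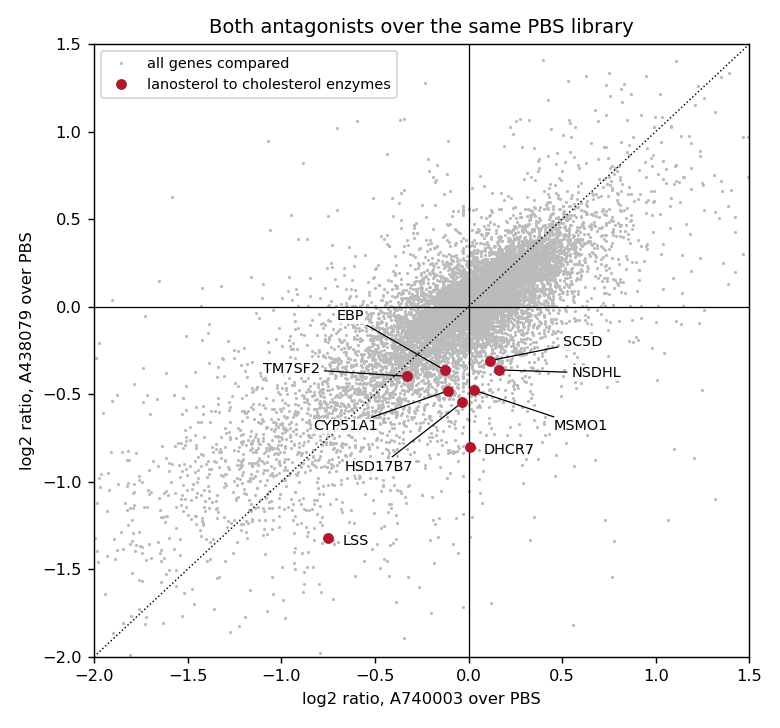
Log2 ratio over PBS of each gene compared (grey, 12273 genes, 193 of them outside the plotted range) and of the 9 enzyme genes (red), with A740003 on the x axis and A438079 on the y axis. All 9 red points lie below the dotted line of equal ratios, with medians of -0.03 on the x axis and -0.48 on the y axis, and both axes share the PBS library.

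Removing the GC and length trend shifted the log2 ratios over PBS by most for LSS, TM7SF2 and DHCR7, whose longest transcripts have GC contents of 58.3%, 64.2% and 58.3%. The contents are 38.1% for MSMO1 and 38.6% for SC5D, the lowest of the 9. With the GC and length trend removed, all 9 genes still stood below PBS with A438079, with a median log2 ratio of -0.52, and LSS, HSD17B7 and DHCR7 were at least 1.5-fold lower, as were 4.9% of all genes. The counts over all genes were then 583 lower and 238 higher with A438079, and 807 lower and 421 higher with A740003. With A740003 none of the 9 was then 1.5-fold lower, and DHCR7 stood at 1.16 times PBS (1.08 to 1.25). By the authors' FPKM, DHCR7 stood at 0.468 times PBS with A438079, below its count ratio of 0.574, and at 2.20 times for A740003 over A438079, above its count ratio of 1.75. FPKM also divides by a length, and the counts per FPKM of DHCR7 differed between A438079 and PBS by 0.25 on the log2 scale, a difference that 6.80% of 7602 genes with at least 5 FPKM reached. The counts per FPKM of LSS differed by 0.17 between A438079 and PBS, which 14.4% of genes reached, and its FPKM ratio was 0.345. The part of transcript choice in these differences was not tested.

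**Figure D4:**
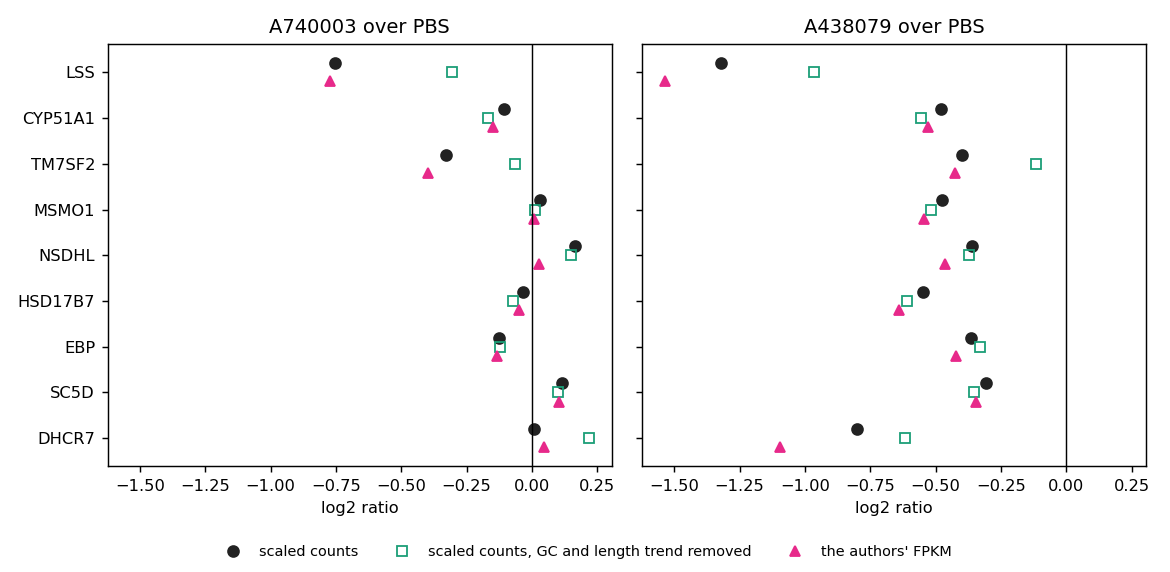
Log2 ratio over PBS of each gene for A740003 (left) and A438079 (right) from scaled counts (filled circles), from scaled counts with the GC and length trend removed (open squares) and from the authors' FPKM (triangles), with a line at 0. With A438079 all 3 measures lie left of 0 for every gene; for LSS the authors' FPKM lie lowest, at a ratio of 0.345.

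Earlier in the pathway, the genes from acetyl-CoA to squalene epoxide also stood mostly below PBS with A438079: 9 of the 11 measured stood below PBS, 4 were at least 1.5-fold lower, none was higher, and the median log2 ratio was -0.50. Over all genes with A438079, 50.5% stood below PBS, 9.43% were lower by that rule and 1.63% were higher. With A740003 their median was -0.03, 6 of the 11 stood below PBS, and none passed 1.5-fold. MVD, which makes isopentenyl diphosphate, had 411 counts with A740003, 230 with A438079 and 549 with PBS. Its ratio to PBS was 0.732 (0.643 to 0.834) for A740003 and 0.420 (0.358 to 0.490) for A438079. With the GC and length trend removed, the log2 ratio of MVD went from -0.45 to -0.11 for A740003 and from -1.25 to -0.89 for A438079. For FDFT1, the squalene synthase gene, the ratios were 0.976 (0.946 to 1.01) for A740003 and 0.606 (0.585 to 0.628) for A438079. ACAT2, a thiolase gene at the pathway's entry, was below PBS with both, at 0.818 (0.789 to 0.848) for A740003 and 0.663 (0.638 to 0.689) for A438079.

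Of 11 measured enzymes and electron donors that work beside the 9 genes, none was 1.5-fold higher or lower with either antagonist. Their median log2 ratio was -0.08 with A740003, with 8 of 11 below PBS, and -0.16 with A438079, with 9 of 11 below. POR, which passes electrons to CYP51A1, had ratios to PBS of 0.819 (0.764 to 0.878) for A740003 and 0.771 (0.717 to 0.828) for A438079. After removal of the GC and length trend its log2 ratios were 0.03 for A740003 and -0.06 for A438079. EBPL, a relative of EBP, was lower with A740003, at 0.786 (0.710 to 0.869), and stood at 0.936 (0.849 to 1.03) for A438079. FAXDC2, a relative of MSMO1 and SC5D, had 152 counts in each antagonist library against 197 with PBS.

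The list of SREBP factors and their processing proteins was lower at several members in both antagonist libraries. Of 9 measured, 3 (SREBF1, SREBF2 and SCAP) were at least 1.5-fold lower and none was higher with each antagonist, beside 10.6% of all genes lower with A740003 and 9.43% with A438079. The median log2 ratios were -0.25 for A740003 and -0.16 for A438079. After removal of the GC and length trend, the same 3 were lower with A740003, and with A438079 only SREBF2 was. SREBF1, which encodes SREBP1 and was named after its values were seen, then had log2 ratios of -1.06 for A740003 and -0.18 for A438079. SREBF2, which encodes SREBP2, had 405 counts with A740003, 436 with A438079 and 930 with PBS, so that it was low in both antagonist libraries, at ratios to PBS of 0.426 (0.378 to 0.479) for A740003 and 0.470 (0.418 to 0.527) for A438079. SCAP, the escort protein of SREBP, had 58 counts with A740003, 103 with A438079 and 209 with PBS. With the GC and length trend removed, the log2 ratio with A740003 was -0.76 for SREBF2 and -1.03 for SCAP, and with A438079 it was -0.71 for SREBF2 and -0.37 for SCAP. MBTPS2, a protease that releases SREBP, was above PBS with both, at 1.26 (1.13 to 1.39) for A740003 and 1.46 (1.32 to 1.62) for A438079. For A740003 over A438079 the ratio of SREBF2 was 0.907 (0.790 to 1.04), an interval that holds 1.

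Among 6319 other protein-coding genes averaging at least 20 CPM, 44 lay within 0.2 of the median pair of log2 ratios of the 9 genes over PBS (-0.03 with A740003, -0.48 with A438079). The nearest was MMAB, an enzyme gene of cobalamin metabolism, with 630 counts with A740003, 450 with A438079 and 629 with PBS. MVK, the mevalonate kinase gene, ACSS2, which makes acetyl-CoA from acetate, and PHACTR4 were also among the 5 nearest. MVK had 507 counts with A740003, 336 with A438079 and 492 with PBS, and ACSS2 had 983, 717 and 971 in the same libraries. Nearness here is the Euclidean distance on both log2 ratios, which share 1 PBS library.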

How the data were processed

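Per the labels' protocols, RNA of 3 samples was extracted with RNeasy and made into SMARTer mRNA libraries. The authors deposited expected counts per gene, estimates that need not be whole (33.3% to 35.1% of values above 0 are not whole), and FPKM values, scaled for length and library size. GRCm38, a mouse build, is named in the submitters' processing notes, but the rows carry human Ensembl identifiers, so the build behind the counts is unclear. Aligner, counting tool, annotation and strand setting: not given in the sources used here. Coordinates are from GENCODE release 29, not from the authors' build.

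Expected counts were rounded, then scaled by edgeR 4.0.16's TMM factors under R 4.3.3. The 116 rows without an Ensembl identifier held 0.0775% to 0.0853% of counts. They were kept in the totals. Ratios have exact conditional binomial (Clopper-Pearson) 95% intervals, and log2 ratios a pseudocount of 0.5 counts. Intervals cover counting error only. All 12273 genes were compared without p-values. The call of a higher or lower gene took at least 1.5-fold and an interval that excludes 1. For 11908 genes (97.0%) a trend, the median over 201 neighbours in rank of longest-transcript GC content and length, was subtracted. The ratio interval and the call of a higher or lower gene were tested on simulated counts that held counting error only. That simulation had no variation between replicate libraries, and the other steps were not tested in it.

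The members and lists were chosen with earlier results of these data known. Named genes are the 9 members, up to 3 genes per list that average at least 5 CPM, taken by largest log2 ratio over PBS, and the 5 genes nearest in pattern. Some genes that these rules pick are not reported here. LYZ, PTPRC, CD3E, KRT7, CFTR, SREBF1, INSIG1, ABCG1 and the genes overlapping members were named after their values were seen. Alternatives were DESeq2 1.42.0 size factors, total counts, upper quartile scaling, other filters, a 2-fold size, unrounded counts, FPKM with pseudocounts of 0.1 and 1, the GC and length step, and sums with pseudogenes.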

Additional observations from a re-analysis of the deposited data

Results flagged for a closer look

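NSDHL and SC5D stood above PBS with A740003 and below PBS with A438079, each with counting intervals that exclude 1, so the antagonist libraries stood on opposite sides of the same PBS library. The ratio of A740003 over A438079 was 1.44 for NSDHL and 1.34 for SC5D. With 1 library per treatment the difference between the antagonists was not tested. By FPKM with a pseudocount of 1 the log2 ratio of NSDHL with A740003 was 0.03, against 0.16 from counts.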

How the results depend on the processing

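With A438079 over PBS and with A740003 over A438079, each of the 9 genes kept its sign under all 11 alternatives (99 values each). With A740003 over PBS, 97 of 99 did, and MSMO1 and DHCR7, neither past 1.5-fold, turned to -0.02 and -0.04 with upper quartile scaling. The other filters and the 2-fold size cannot change the ratio of a gene, so under them the sign was kept by construction. Sums with pseudogenes changed only CYP51A1 and HSD17B7. The median log2 ratio of the 9 genes ran from -0.10 to -0.03 for A740003 over PBS, -0.53 to -0.48 for A438079 over PBS and 0.48 to 0.53 for A740003 over A438079. Counts of the 9 genes past the threshold moved more. At 2-fold, 0 were lower with A740003, 1 with A438079, and 0 were higher with A740003 than with A438079. With the GC and length trend removed, 0 were lower with A740003. Those higher with A740003 than with A438079 were 2 with that trend removed, 2 with total counts, 2 by FPKM with a pseudocount of 1 and 3 with one of 0.1, where calls need no interval. Counts over all genes depended on filters and fold size, by construction where fewer or more genes were compared. Without a filter 769 (A740003) and 512 (A438079) genes were higher than PBS, and 685 were higher and 622 lower with A740003 than with A438079. At a mean of at least 5 CPM these were 149 and 57 higher, 658 (A740003) and 525 (A438079) lower than PBS, and 66 higher and 103 lower between antagonists. At 2-fold they were 146 and 104 higher, 666 and 459 lower, and 124 higher and 139 lower. By FPKM with a pseudocount of 0.1 they were 635 and 389 higher, and 660 higher and 543 lower between antagonists, where 220 were lower with a pseudocount of 1. With the trend removed, 807 (A740003) and 583 (A438079) genes were lower than PBS. The cause of the FPKM and trend shifts was not tested. No paired analysis was possible because each treatment is 1 library. Depth limits TM7SF2 and LSS most, at 278 and 363 counts with A438079.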

Other observations

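Genes that take up, move or store cholesterol stood on both sides of PBS. With A740003, 4 of 11 measured were below PBS, and with A438079, 9 of 11. Of these 11, 3 were at least 1.5-fold lower with each antagonist and none was higher, beside 10.6% of all genes lower with A740003 and 9.43% with A438079. With GC and length trends taken out, 2 remained past that size with each. The median log2 ratio was 0.03 with A740003 and -0.18 with A438079. SCARB1, the receptor for high density lipoprotein, had 579 counts with A740003, 636 with A438079 and 1248 with PBS. NPC1L1, a sterol importer of the cell surface, had 75 counts with A740003, 102 with A438079 and 189 with PBS. Both were low in both antagonist libraries, at ratios of 0.454 (A740003) and 0.510 (A438079) for SCARB1 and 0.388 (A740003) and 0.541 (A438079) for NPC1L1. With GC and length trends taken out, the log2 ratio with A740003 was -0.92 for SCARB1 and -0.82 for NPC1L1, and with A438079 it was -0.73 for SCARB1 and -0.45 for NPC1L1.

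Genes of the oxysterol receptors LXR and their targets had median log2 ratios of 0.31 with A740003 and 0.19 with A438079, with 7 of 8 measured. The medians of all genes were 0.005 and -0.004. Of the 7, 2 stood below PBS with each antagonist, beside 49.1% of all genes with A740003 and 50.5% with A438079. None was 1.5-fold higher, beside 3.21% of all genes with A740003 and 1.63% with A438079. NR1H2 alone was 1.5-fold lower, with A740003 only, beside 10.6% of all genes. ABCA1, which exports cholesterol, had 2505 counts with A740003, 2107 with A438079 and 1657 with PBS, at ratios to PBS of 1.48 (1.39 to 1.57) for A740003 and 1.27 (1.19 to 1.36) for A438079. ABCG5, a sterol exporter to bile, had 202 counts with A740003, 156 with A438079 and 137 with PBS, at ratios of 1.44 (1.16 to 1.80) for A740003 and 1.14 (0.901 to 1.45) for A438079. NR1H2, which encodes an LXR, was below PBS, at ratios of 0.609 (0.472 to 0.783) for A740003 and 0.762 (0.600 to 0.965) for A438079. With the GC and length trend removed, the log2 ratio of NR1H2 went from -0.71 to -0.48 for A740003 and from -0.39 to -0.11 for A438079. The list medians were then 0.27 for A740003 and 0.16 for A438079, and no gene of the list was 1.5-fold higher or lower. INSIG1, a sterol sensor gene, and ABCG1, a cholesterol exporter gene, were named after their values were seen. INSIG1 was listed at 0 counts with A740003, 1 with A438079 and 0 with PBS, and ABCG1 at 0 in every library.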
